A study of Mus musculus with 8 samples.

Results

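The Fanconi anemia core complex and its substrate pair, called the ID2 complex, were followed in mouse embryonic stem (ES) cells exposed to cisplatin. The members were the 8 core genes Fanca, Fancb, Fancc, Fance, Fancf, Fancg, Fancl and Fancm, and the 2 ID2 genes Fancd2 and Fanci. They were chosen by name, and all 10 were measured among 17097 genes, by 20 of the 45141 probe sets on the array. Where a gene had several probe sets, the one with the highest mean over all 8 arrays led and stood for the gene. The treated group was 4 arrays of ES cells given 2.5 µM cisplatin, a platinum drug that crosslinks DNA within and between strands. The solvent group was 4 arrays of the same cells given dimethyl sulfoxide, and both groups were sampled at 8 h. All cells of both groups were HPRT deficient, of strain C57BL/6 and at passages 19 to 22, and had been moved from feeder-coated to gelatin-coated plates before the experiment. The replicates are numbered 3 to 6 in each group. The labels give neither the number of clones nor whether replicates were separate cultures, and the spread behind each p-value may therefore be technical. The array is a bulk measurement on the log2 scale, in which fewer cells of a type and less RNA per cell cannot be told apart.

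The Fanconi pathway repairs interstrand crosslinks, which block the replication fork because they hold both strands together. Its parts were worked out largely with human proteins. FANCM with FAAP24 and the histone-fold pair CENPS and CENPX recognises the stalled fork and anchors the core complex there. The core complex is built of a catalytic module (FANCB, FANCL and FAAP100), a module of FANCA, FANCG and FAAP20, and a module of FANCC, FANCE and FANCF that contacts the substrate. FANCL, with the conjugating enzyme UBE2T, attaches a single ubiquitin to FANCD2 and FANCI, which then close as a clamp around DNA, and USP1 with WDR48 removes it again. The pathway thus acts through a modification of protein, which RNA levels do not show. ES cells spend much of their cycle in S phase, when this pathway is used.

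The labelled cell type was borne out by its markers. Pou5f1 stood at 12.19 ± 0.06 log2 units on the cisplatin arrays and at 12.23 ± 0.06 on the control arrays (SD, n = 4), and none of the 9 ES cell markers measured was near array background. Of these 9, 5 were called lower with cisplatin by limma and 0 higher, where 7.69% of all genes were called lower and 11.6% higher. The median change of the list was -0.22. The 5, named after their values were seen, were Esrrb at -0.55 ± 0.07, Klf4 at -0.40 ± 0.07, Zfp42 at -0.34 ± 0.06, Nanog at -0.25 ± 0.06 and Utf1 at -0.22 ± 0.05 (log2 fold change ± SE), with adjusted p-values of 0.0210 or less. Expression of these pluripotency genes thus moved with the treatment, and its part in the results of the members was not tested. Background was read from control probes that match no transcript, which averaged 3.10 log2 units for probes with 24 G or C among their bases. Probes with fewer G or C averaged less, but those with 25 averaged 4.89. Fance averaged 4.46 with cisplatin and 4.45 in the controls, and Fancg 4.71 and 4.56, all below 4.89. Fancc was close to it, at 4.91 with cisplatin and 5.18 in the controls. The setting without dim genes, used below, leaves out Fance and Fancg. Of 12 fibroblast markers, listed because feeder cells had been used, 7 lay below 3.10 in both groups, among them Col1a2, Postn, Lum and Dcn. Of the 5 above it, Acta2, a gene of contractile cells, was by far the brightest, at 8.58 ± 0.35 on the cisplatin arrays and 8.43 ± 0.26 on the control arrays (SD, n = 4), and its 0.14 ± 0.18 did not pass (adjusted p = 0.652). Loxl1 averaged 4.61 with cisplatin and 4.04 in the controls (adjusted p = 0.0785), and Col1a1 and Col3a1 lay between 3.37 and 3.55 on average. The mean over the list ran from 3.43 to 3.80 on the cisplatin arrays and from 3.44 to 3.62 on the control arrays. Thy1 was called higher with cisplatin, at 5.23 against 4.62 on average, a change of 0.61 ± 0.15 (adjusted p = 0.0176). Fbln2, the other called gene of that list, averaged 2.30 with cisplatin and 2.10 in the controls, both below 3.10, so no level is read from it. The part of feeder cells in the results below was not tested. Hprt was read between 4.69 and 5.03 on the cisplatin arrays and between 4.21 and 4.99 on the control arrays. No source used here says which part of the gene the deficiency affects, so this checks nothing.

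The comparison of cisplatin with control asked which transcripts respond within 8 h. Among the 10 members 1 was called higher (Fancb) and 2 lower (Fancm and Fancc) at an adjusted p under 0.05 by limma, with the adjustment over all 17097 genes. Over all genes 19.3% were called, 11.6% higher and 7.69% lower, so a count of 3 in 10 is not a result about the members as a group. The median change of the members was 0.00 on the log2 scale against 0.01 for all genes, and the median size of change, direction aside, was 0.16 against 0.10. The 4 values of one group lay wholly apart from the 4 of the other for Fanca, Fancb, Fancc and Fancm, where 24.3% of all genes did so. For scale, the p53-driven genes Cdkn1a and Mdm2 rose by 1.22 ± 0.12 and 1.48 ± 0.12 on the same arrays, and the mitotic kinase gene Plk1 was at -0.77 ± 0.05.

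**Figure D1:**
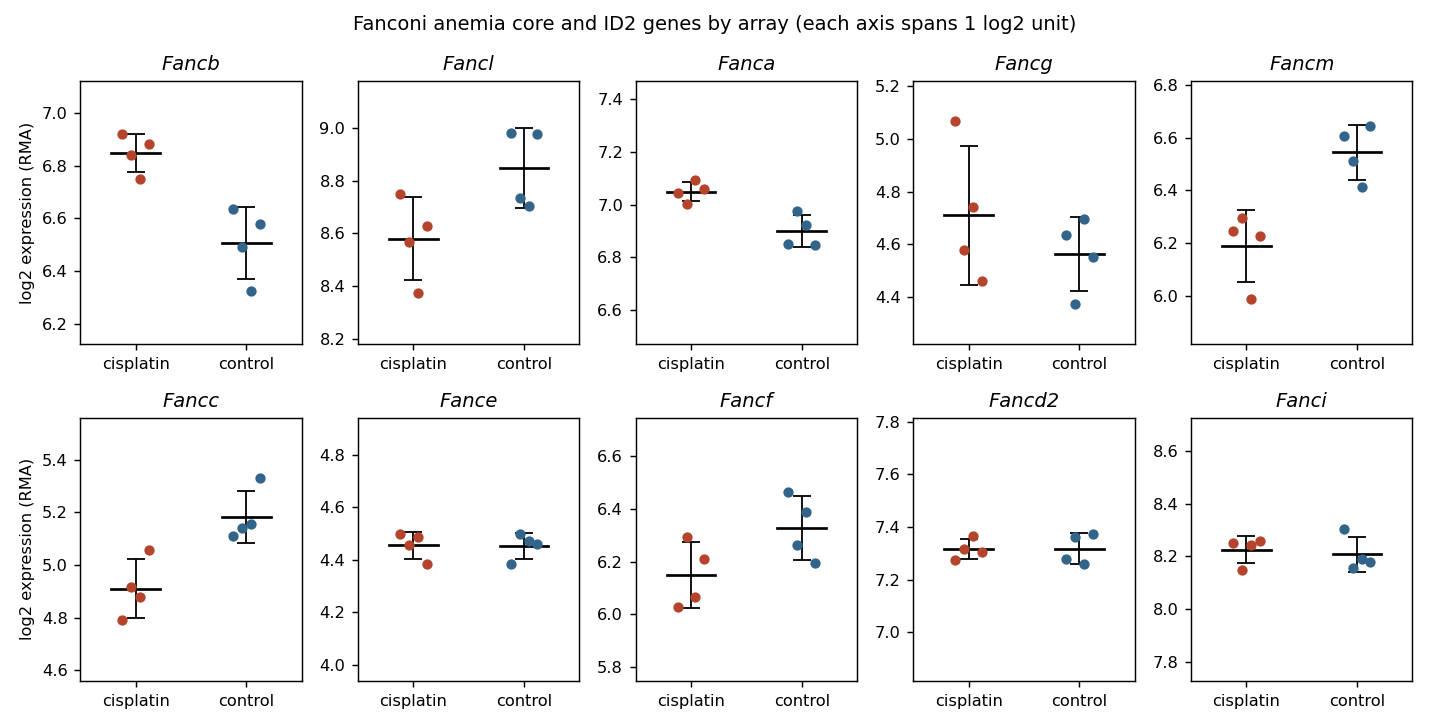
The log2 expression (RMA) of the 10 members is plotted for each array, with cisplatin on the left and control on the right of each panel; points are arrays, the horizontal line is the mean and the bar is ± 1 SD (n = 4). All panels span 1 log2 unit, so the gap in Fancb, Fancm and Fancc can be set against the overlap in Fancd2 and Fanci.

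In the catalytic module, Fancb was the called member. This X-linked gene, whose protein sits at the centre of the module, read 6.92, 6.84, 6.75 and 6.88 log2 units on cisplatin arrays 3 to 6, against 6.64, 6.49, 6.32 and 6.58 on control arrays 3 to 6. Every cisplatin value was above every control value. The change was 0.34 ± 0.08 (adjusted p = 0.0103, limma, n = 4 against 4), or 1.27-fold higher. A second, dimmer Fancb probe set showed the same direction, with 4.50, 4.44, 4.22 and 4.57 on the cisplatin arrays against 4.21, 4.09, 3.73 and 4.14 on the control arrays, again without overlap. This probe set averaged 4.43 with cisplatin and 4.04 in the controls, both below the 4.89 of control probes with 25 G or C. Tested among all 28898 single-gene probe sets, of which 16.3% were called, it rose by 0.39 ± 0.11 (adjusted p = 0.0382). The call of Fancb was lost when each array was centred on its median over the genes tested, a step that lowers every change by about 0.13 (Fancb at 0.21, adjusted p = 0.0806).

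Fancl, which encodes the ubiquitin ligase of the complex, read 8.75, 8.57, 8.37 and 8.63 on the cisplatin arrays and 8.98, 8.73, 8.70 and 8.98 on the control arrays. The groups overlapped by a narrow margin, since the highest cisplatin array was slightly above the lower pair of controls. Its change of -0.27 ± 0.10 did not pass the test (adjusted p = 0.0813), and the unadjusted 95% interval ran from -0.48 to -0.05. It passed after centring (-0.40, adjusted p = 0.0179), without dim genes (adjusted p = 0.0453), with an intensity trend (adjusted p = 0.0222) and without cisplatin replicate 3 (-0.33, adjusted p = 0.0476). With replicate number as a block it passed too (-0.27, adjusted p = 0.0184), though the numbers were not taken to pair the samples.

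Faap100, the remaining gene of the module, read 6.34, 6.41, 6.27 and 6.45 with cisplatin and 6.06, 5.99, 5.79 and 6.00 in the controls. The groups lay apart, and the change of 0.41 ± 0.07 (adjusted p = 0.00290) was 1.33-fold. Faap100 was called in the same direction under each of the 10 alternative settings and without any single array. Of the 3 genes of the module, Fancb and Faap100 were thus called higher, and whether the lower value of the ligase gene passed depended on the setting.

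The deposited values had already been scaled by RMA. The log2 difference between Fancb and Fancl within an array is free only of a shift common to all values of that array. It was -1.83, -1.73, -1.62 and -1.75 on the cisplatin arrays and -2.35, -2.24, -2.38 and -2.40 on the control arrays. The groups did not overlap, and the difference of change was 0.61 (two-sided exact permutation test over 70 assignments of the arrays, p = 0.0286, the smallest this design can give). Such a difference shows unequal change of the 2 transcripts, not which of them moved. The means of -1.73 ± 0.08 with cisplatin and -2.34 ± 0.07 in the controls (SD, n = 4) lay apart by several times the spread within either group. With 7 pairs of partner genes compared, the adjusted p was 0.1. This correction could hardly be passed, because even the smallest p stays above the threshold unless most of the 7 pairs reach it.

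**Figure D2:**
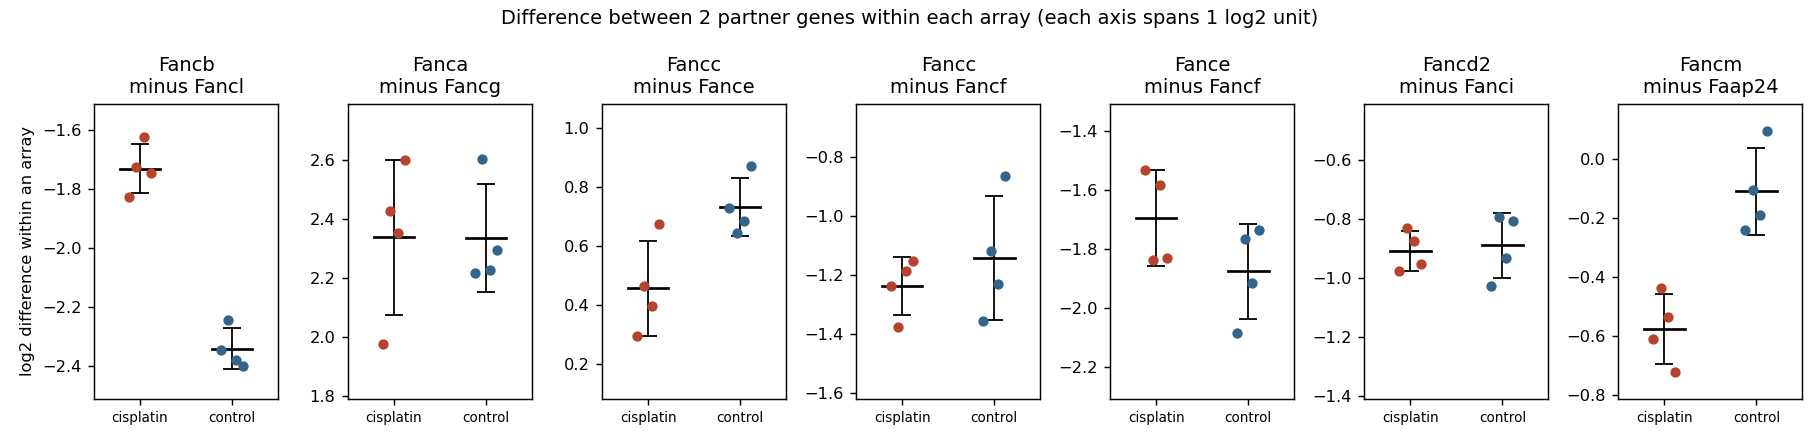
The difference of log2 expression between 2 partner genes is plotted for each array, cisplatin left and control right; points are arrays, lines are means and bars are ± 1 SD (n = 4). Fancb minus Fancl and Fancm minus Faap24 are the 2 of 7 pairs whose groups do not overlap, with exact permutation p = 0.0286 and adjusted p = 0.1 for each. Of all single genes 24.3% did not overlap, and no such share was computed over pairs of genes.

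The anchor gene Fancm, which encodes a DNA translocase, was lower with cisplatin. It read 6.25, 6.30, 5.99 and 6.23 on the cisplatin arrays and 6.61, 6.51, 6.41 and 6.64 on the control arrays. All 4 cisplatin values lay below all 4 control values, and the change was -0.35 ± 0.08 (adjusted p = 0.0122), so that the control level was 1.28-fold the cisplatin level. The other probe sets of Fancm did not carry the call. One read 5.67, 5.17, 5.21 and 5.83 with cisplatin and 5.70, 5.44, 5.77 and 5.63 in the controls, with overlapping groups and a change of -0.17 ± 0.15 (adjusted p = 0.526). The third was below 3.10 in both groups, at 2.83 and 2.85 on average. The call of Fancm was lost when the most variable probe set (-0.17, adjusted p = 0.521) or the mean of the probe sets (-0.18, adjusted p = 0.0855) stood for the gene.

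No partner gene of FANCM was called in the fit as reported. Faap24, which encodes its binding partner, was at 0.11 ± 0.10 (adjusted p = 0.514), with means of 6.77 ± 0.18 on the cisplatin arrays and 6.65 ± 0.13 on the control arrays (SD, n = 4). Cenps was at 0.11 ± 0.06 (adjusted p = 0.268). Cenpx read 8.45, 8.41, 8.39 and 8.29 with cisplatin and 8.28, 8.07, 8.27 and 8.13 in the controls, apart but by a narrow gap, and its 0.20 ± 0.06 did not pass (adjusted p = 0.0601). Cenpx was called higher in 4 of 10 alternative settings, and in 0 of the 8 fits without a single array. The 4 were quantile normalization (limma adjusted p = 0.0430), both filters of dim genes (0.0252 and 0.0391) and the intensity trend (0.0224). The difference Fancm minus Faap24 was -0.61, -0.44, -0.54 and -0.72 on the cisplatin arrays against -0.24, -0.11, -0.19 and 0.09 on the control arrays, without overlap. The difference of change was -0.47 (exact permutation p = 0.0286, adjusted p = 0.1 over the 7 pairs), and -0.28 with the most variable probe sets.

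In the substrate-contacting module, Fancc was the called gene. It read 4.79, 4.92, 4.88 and 5.06 with cisplatin and 5.11, 5.14, 5.16 and 5.33 in the controls, and the groups were separated by a gap smaller than the spread within either of them. The change was -0.27 ± 0.07 (adjusted p = 0.0264), with the control level 1.21-fold the cisplatin level. The further Fancc probe set, close to background at 3.17 and 3.11 on average, was at 0.07 ± 0.09 (adjusted p = 0.718). The call was lost with the mean of the probe sets (-0.10, adjusted p = 0.354), with an intensity trend (adjusted p = 0.0598) and by the unmoderated t statistic (adjusted p = 0.0590). It was also lost when any 1 of 5 arrays was left out, cisplatin 3, 4 and 5 and control 5 and 6, with adjusted p-values up to 0.0671, so Fancc is the least secure of the 3 calls.

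Fance, whose protein binds FANCD2, read 4.50, 4.46, 4.48 and 4.38 with cisplatin and 4.38, 4.50, 4.47 and 4.46 in the controls. The groups covered each other, the change was 0.00 ± 0.05 (adjusted p = 0.982) and the 95% interval ran from -0.12 to 0.12. Its single probe set is of a kind that can match several transcripts. Fancf, an adaptor protein gene with a single exon, read 6.03, 6.29, 6.07 and 6.21 with cisplatin and 6.47, 6.26, 6.39 and 6.19 in the controls. The groups overlapped, and -0.18 ± 0.08 did not pass (adjusted p = 0.172, interval -0.36 to 0.00), although it passed after centring (-0.31, adjusted p = 0.0151). Within the module, Fancc minus Fance differed by -0.28 between the groups (exact permutation p = 0.0571), Fance minus Fancf by 0.18 (p = 0.2) and Fancc minus Fancf by -0.10 (p = 0.457). Their adjusted p-values were 0.133, 0.35 and 0.64, under a correction that these few arrays could hardly pass. For Fancc minus Fance the means were 0.46 ± 0.16 with cisplatin and 0.73 ± 0.10 in the controls (SD, n = 4), with overlapping groups.

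The module of Fanca and Fancg gave no call. Fanca, the most frequently mutated gene in human patients with the disease, read 7.05, 7.004, 7.09 and 7.06 with cisplatin and 6.85, 6.98, 6.92 and 6.85 in the controls. Every cisplatin array was above every control array, by a small gap. The change of 0.15 ± 0.05 did not pass over all genes (adjusted p = 0.0776, interval 0.03 to 0.27). It passed without dim genes (adjusted p = 0.0247) and by the unmoderated t statistic (adjusted p = 0.0406), and was at 0.02 after centring (adjusted p = 0.809). Fancg, whose protein binds FANCA directly, was the most variable member, with 5.07, 4.58, 4.74 and 4.46 on the cisplatin arrays and 4.63, 4.37, 4.70 and 4.55 on the control arrays. Its 0.15 ± 0.13 did not pass (adjusted p = 0.492), and the interval from -0.13 to 0.43 would admit a change as large as that of Fancb. The difference Fanca minus Fancg was 2.34 ± 0.26 with cisplatin and 2.34 ± 0.18 in the controls (SD, n = 4, exact permutation p = 1).

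Neither ID2 gene was called. Fancd2 read 7.28, 7.32, 7.37 and 7.31 with cisplatin and 7.28, 7.36, 7.26 and 7.37 in the controls. Its change was 0.00 ± 0.05 (adjusted p = 0.990), and the interval from -0.12 to 0.12 leaves out a change the size of that of Fancb. Fanci, the paralogue that pairs with Fancd2, read 8.25, 8.15, 8.24 and 8.26 with cisplatin and 8.30, 8.16, 8.19 and 8.18 in the controls, at 0.02 ± 0.06 (adjusted p = 0.880, interval -0.11 to 0.14). The groups of both genes covered each other. Further Fancd2 probe sets were at -0.07 ± 0.10 (adjusted p = 0.738) and, below background, at 0.04 ± 0.06 (adjusted p = 0.777), and a further Fanci probe set below background was at -0.10 ± 0.07 (adjusted p = 0.378). The difference Fancd2 minus Fanci was -0.91 ± 0.07 with cisplatin and -0.89 ± 0.11 in the controls (SD, n = 4, exact permutation p = 0.771).

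**Figure D3:**
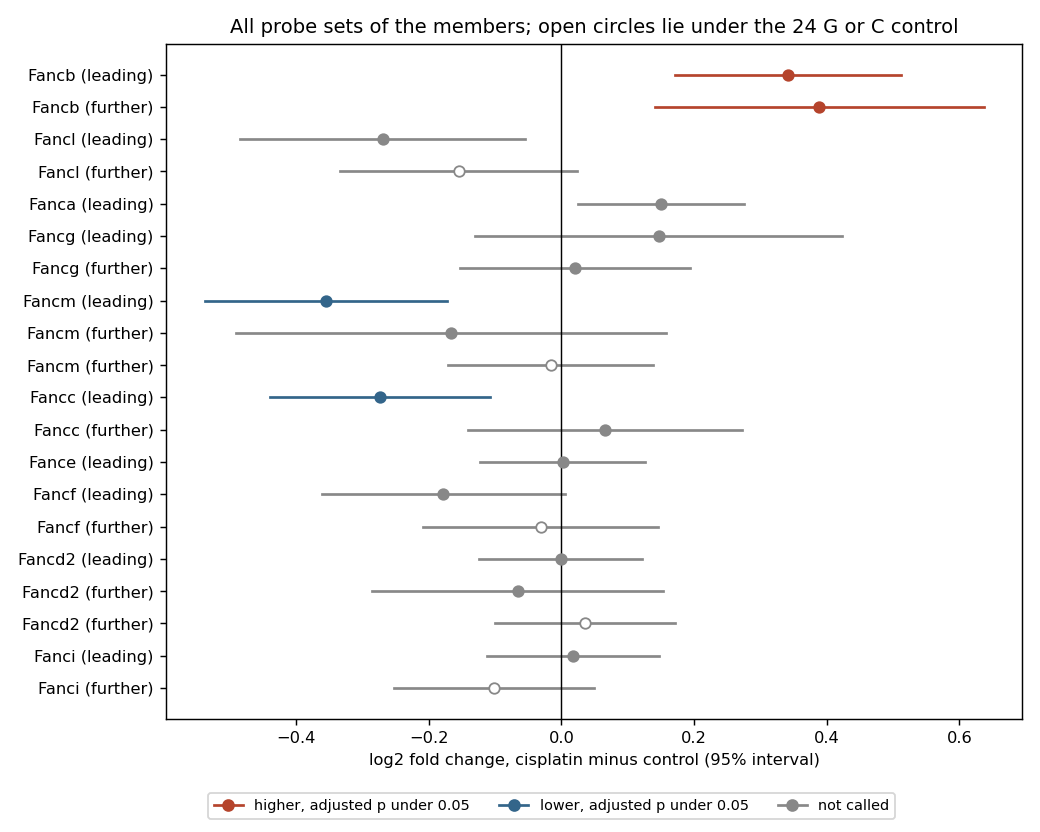
The log2 fold change (cisplatin minus control) of each of the 20 member probe sets is shown with its 95% interval; the leading probe set of each gene comes first, colours mark calls at an adjusted p under 0.05 over all single-gene probe sets, and open circles mark the 5 probe sets below 3.10 in both groups. Both Fancb probe sets lie to the right of 0, whereas for Fancm and Fancc the leading probe set alone was called.

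Promoter sequences are shown for the 3 called members, since they moved in opposite directions. The RefSeq promoter table for mouse assembly GRCm38.p6 holds 9 of the 10 members, with 250 bases before and 50 after the annotated start, and Fancd2 is the member not matched. The searches covered both strands for 3 E2F-like motifs (TTTCCCGC, TTTGGCGC and TTTCGCGC), for the CHR element TTTGAA and for the CCAAT box, all elements that occur in promoters of cell cycle genes; no 2 of these overlapped in the members. Sequences run 5′ to 3′ along the gene, and capitals mark a CCAAT box or its reverse complement. The windows are chrX:164980342-164980641 on the + strand for Fancb, chr12:65075353-65075652 on the + strand for Fancm and chr13:63431696-63431995 on the - strand for Fancc. The start used for Fancm lies 1.49 kb, and that for Fancc 65.5 kb, inside the span annotated for the gene.
Fancb: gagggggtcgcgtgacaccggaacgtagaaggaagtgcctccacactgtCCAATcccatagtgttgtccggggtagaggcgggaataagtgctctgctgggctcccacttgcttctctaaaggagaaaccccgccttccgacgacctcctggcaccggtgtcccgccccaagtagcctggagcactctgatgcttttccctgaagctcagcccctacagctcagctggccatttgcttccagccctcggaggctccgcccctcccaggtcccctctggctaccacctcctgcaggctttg
Fancm: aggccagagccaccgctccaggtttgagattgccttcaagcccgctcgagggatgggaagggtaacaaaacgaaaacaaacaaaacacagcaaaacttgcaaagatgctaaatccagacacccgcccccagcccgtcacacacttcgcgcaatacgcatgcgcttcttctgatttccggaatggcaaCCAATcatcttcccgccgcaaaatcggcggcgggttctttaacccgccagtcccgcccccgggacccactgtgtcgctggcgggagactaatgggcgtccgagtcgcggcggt
Fancc: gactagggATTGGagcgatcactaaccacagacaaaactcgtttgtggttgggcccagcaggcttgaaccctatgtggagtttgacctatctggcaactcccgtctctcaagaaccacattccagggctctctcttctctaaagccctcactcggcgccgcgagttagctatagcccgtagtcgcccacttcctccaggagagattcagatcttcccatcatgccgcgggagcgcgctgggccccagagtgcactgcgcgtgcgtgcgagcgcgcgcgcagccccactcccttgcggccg

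Each of the 3 windows holds 1 CCAAT match, at -201 from the start in Fancb and at -63 in Fancm on the given strand, and at -242 in Fancc on the other strand. The same letters were found in 6 of the 9 member promoters, 2 times in Fanca and 3 times in Fancf, and in 37.4% of the 32851 promoters of the table. An E2F-like match was found in Fancg alone, TTTCCCGC at -52, against 1.84% of all promoters for the 3 E2F-like motifs together. No member window held the CHR letters, which 17.9% of all promoters hold. A match is a string of letters and not a shown site, and the CCAAT match was present in the member called higher as well as in those called lower.

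Most other genes of the pathway were not called, although Faap100 and Slx4 changed by more than any member, direction aside. Of 24 partner, downstream and dissolution genes listed by role, 20 were measured, and 3 were called higher and none lower by limma, a share close to the 11.6% of all genes called higher. At an unadjusted limma p under 0.05, 6 were higher and 0 lower, where 3139 of all 17097 genes were higher and 2167 lower. The median change of the 20 genes was 0.08, against 0.01 for all genes. Besides Faap100, the called genes were Slx4 and Rad51c. Slx4, which encodes the scaffold of the nucleases that unhook a crosslink, read 6.44, 6.25, 6.18 and 6.55 with cisplatin and 6.04, 5.98, 5.90 and 5.98 in the controls, without overlap. Its change was 0.38 ± 0.08 (adjusted p = 0.00905), and the call was lost after centring (0.25, adjusted p = 0.0544).

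Rad51c, whose protein acts in the recombination step of repair, read 7.55, 7.45, 7.65 and 7.55 with cisplatin and 7.30, 7.28, 7.45 and 7.26 in the controls. The highest control just exceeded the lowest cisplatin array. The change of 0.23 ± 0.06 (adjusted p = 0.0347) was lost after centring (0.10, adjusted p = 0.277), by the unmoderated t statistic (adjusted p = 0.0539) and on leaving out any 1 of 6 arrays, namely cisplatin 3, 5 and 6 and control 3, 4 and 6 (adjusted p up to 0.0915). Ercc4, the catalytic subunit gene of the XPF nuclease, was at 0.23 ± 0.09 (adjusted p = 0.108) and Rfwd3, a ubiquitin ligase gene, at 0.13 ± 0.06 (adjusted p = 0.133).

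The enzymes that add and remove the ubiquitin showed no call. Ube2t was at 0.02 ± 0.06 (adjusted p = 0.903, interval -0.12 to 0.15). Usp1 averaged 10.99 ± 0.04 with cisplatin and 11.08 ± 0.03 in the controls (SD, n = 4), and Wdr48 averaged 7.76 ± 0.08 with cisplatin and 7.88 ± 0.03 in the controls. Neither pair of groups overlapped, but -0.10 ± 0.05 and -0.12 ± 0.06 did not pass (adjusted p = 0.217 and 0.180). Both passed after centring, at -0.23 and -0.25 (adjusted p = 0.0143 and 0.0153). Of the recombination genes, Brca1 was at 0.08 ± 0.06, Brca2 at 0.01 ± 0.06, Palb2 at -0.01 ± 0.05 and Brip1 at -0.08 ± 0.08. Mad2l2, also listed as downstream, was at 0.02 ± 0.05. The dissolution genes Blm, Top3a, Rmi1 and Rmi2 lay between -0.08 and 0.11. Rmi2, the uppermost of them, was close to background, at 3.31 with cisplatin and 3.20 in the controls on average.

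**Figure D4:**
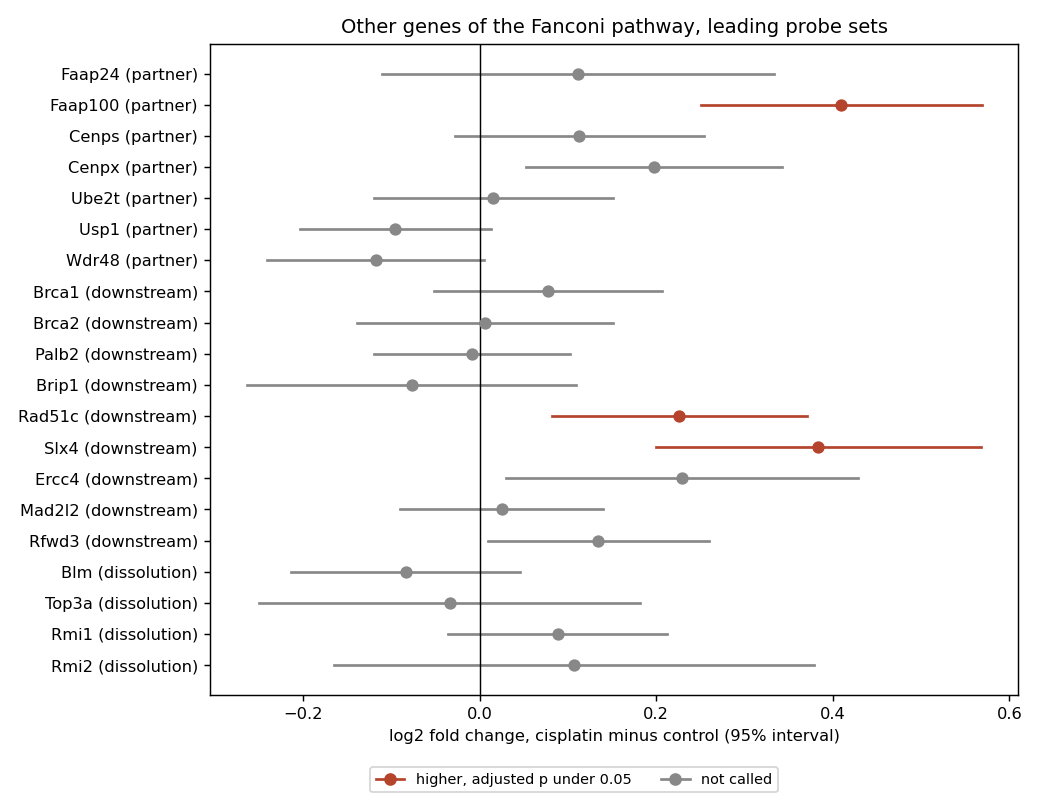
The log2 fold change (cisplatin minus control) of the 20 other pathway genes measured is shown with its 95% interval, ordered by role. Faap100, Slx4 and Rad51c, in colour, passed the test over all genes; the remaining 17 did not.

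Genes of DNA replication, which are transcribed in the same phase as many Fanconi genes, had a smaller median size of change. Direction aside, it was 0.09, against 0.16 for the members and 0.10 for all genes. The replication genes were also brighter, with list means of 10.06 to 10.11 on the control arrays, against 6.45 to 6.53 for the members. The part of this level in the sizes of change was not tested. Of 22 S-phase genes measured, 3 were called higher, a share close to the 11.6% of all genes, and none was called lower. Their median change was 0.07. The higher ones were Ccne2, Rrm2 and Rfc3, named after their values were seen. By contrast, 15 of 19 genes of G2 and mitosis were called lower, against 7.69% of all genes, with a median of -0.27. Of 19 p53 target genes, 18 were called higher, against 11.6% of all genes, with a median of 1.15. The share of cells in each phase was not measured, so its part in the values of the members was not tested.

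The members also differ in gene length, taken from the reference annotation as a property of the gene. The longest were Fancc at 196 kb and Fancl at 84.8 kb, whose changes were -0.27 and -0.27. Fancd2 (65.4 kb), Fanci (58.0 kb) and Fancm (57.7 kb) had changes of 0.00, 0.02 and -0.35, and Fanca (52.4 kb) was at 0.15. Of the shorter genes, Fancb (16.8 kb) was at 0.34, Fance (13.0 kb) at 0.00, Fancg (8.23 kb) at 0.15 and Fancf (1.69 kb) at -0.18. Over the 10 members the Spearman correlation of length with change was -0.45, and over 16936 genes with a length it was -0.25, both given as descriptions across genes, which are not independent replicates. Of the 2124 genes over 100 kb, 26.9% were called lower and 3.58% higher, against 2.11% and 13% of the 5108 genes up to 10 kb. The part of gene length in the changes of the members was not tested.

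**Figure D5:**
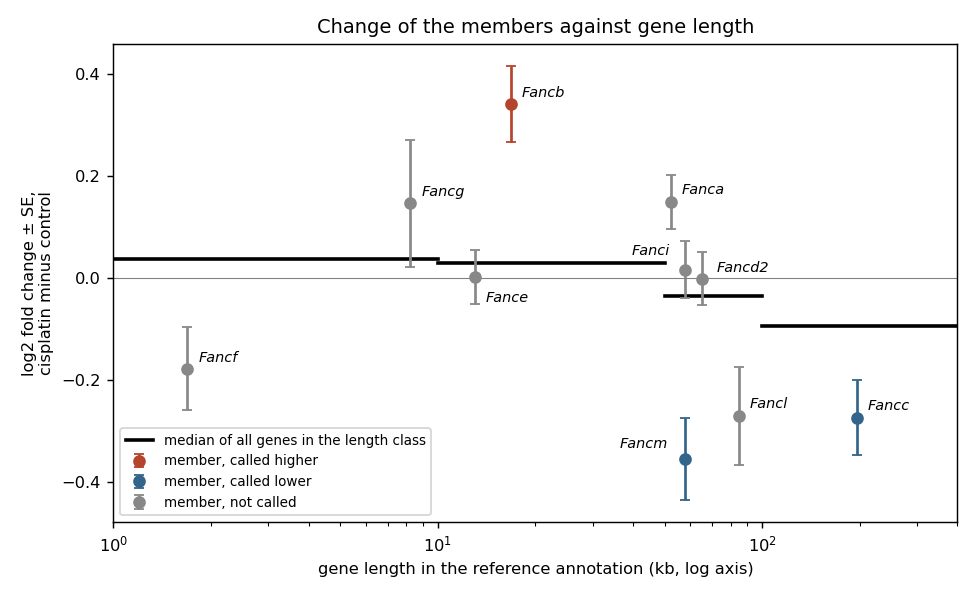
The log2 fold change ± SE of each member (4 arrays against 4) is plotted against the length of its gene on a log axis, with the median change of all genes in 4 length classes as black lines. Fancc and Fancl, the longest, lie at -0.27 each, and the 4 members between 52.4 and 65.4 kb run from -0.35 (Fancm) to 0.15 (Fanca).

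For each called member the 3 genes with the most similar profile over the 8 arrays were found by Pearson correlation among all genes. For Fancb they were Dalrd3, Dgka and Fstl3 (r = 0.99, 0.98 and 0.97), for Fancm they were Arhgap44, Sf3a1 and Esf1 (r = 0.98, 0.98 and 0.98) and for Fancc they were Zc3hav1, Haus4 and Foxn2 (r = 0.99, 0.97 and 0.97). The 8 points of each correlation share their arrays and include the step between the groups.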

How the data were processed

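Per the labels' protocols, total RNA was extracted with a miRNeasy kit, and messenger RNA was amplified with a kit for 3′ in vitro transcription and labelled with biotin. The authors deposited log2 expression values, 1 column per array, from RMA per the submitters' processing notes, which also name limma without a version. RMA scales arrays to a common distribution and hides any shift in the RNA content of a cell; column medians ran from 3.35 to 3.38.

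Probe sets with exactly 1 gene symbol (28898; 551 had several) were used, and symbols were updated through Entrez identifiers, found for 16937 of 17097 genes. Cisplatin was set against control with limma 3.58.1 (lmFit and eBayes, a term for group and no other) under R 4.3.3, Benjamini-Hochberg over all genes, threshold 0.05, no filter. Exact permutation tests were two-sided. The 4 arrays per group limit precision (median SE 0.08). Simulated data with known changes were used to test the fit. Figures used matplotlib 3.10.9.

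Members and lists were chosen with earlier results of these data known. Named were all members, the called or, up to 6, the smallest-p pathway genes, 3 like genes per called member, and Cdkn1a, Mdm2, Plk1 and Pou5f1; others named were chosen after their values were seen. Listed genes without a value were not analysed here. Alternatives covered probe set, centring, normalization, dim genes, variance model, threshold, replicate number and each array left out; the filter at the 24 G or C control was added after seeing the data.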

Additional observations from a re-analysis of the deposited data

Results flagged for a closer look

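Of 32 sets of 4 arrays looked at (10 members and 6 pathway genes, in each group), 1 held an array far from the others. Fanci on cisplatin replicate 4 read 8.15 log2 units, against 8.24 to 8.26 on the other 3 cisplatin arrays. The gap took up 0.84 of the range of the group, and chance alone flags about 1 set in 20 by this measure.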

How the results depend on the processing

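The count of members called higher (1 as reported) was 0 after centring and at an adjusted p under 0.01, and 2 without dim genes, without genes under the 24 G or C control and with an unmoderated t statistic, where Fanca joined Fancb. The count called lower (2 as reported) was 1 with the most variable probe set and with an unmoderated t statistic. It was 0 with the mean of the probe sets and at an adjusted p under 0.01. It was 3 without dim genes, where Fancl joined, and 4 after centring, where Fancf and Fancl joined. With an intensity trend it stayed at 2, with Fancl in place of Fancc, and it ran from 1 to 2 without single arrays. Pathway genes called higher (3 as reported) numbered 1 after centring and 5 with an intensity trend (Cenpx and Rfwd3 joined), and 2 to 3 without single arrays. They numbered 4 with quantile normalization, without dim genes and without genes under the 24 G or C control, where Cenpx joined. With an unmoderated t statistic and at an adjusted p under 0.01 they numbered 2. Those called lower (0 as reported) numbered 3 after centring (Usp1, Wdr48 and Blm) and 1 (Usp1) under both the intensity trend and the unmoderated t statistic. Centring moved the median of all genes to -0.12, against 0.01 as reported, and the share of higher genes among all calls to 21.7%, against 60.2%. Fancb was called in the same direction in 8 of 10 alternatives and without each of the 8 arrays; Fancm was so in 7 of 10 and without each array.

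Changes near 0 turned sign. Fance was at -0.13 after centring, -0.034 with quantile normalization and -0.021 to 0.026 without single arrays. Fanci was at -0.10 with the most variable probe set, -0.042 with the mean of probe sets, -0.11 after centring and -3.4e-05 to 0.049 without single arrays, and Fancd2 at -0.021 to 0.017 without single arrays. Fancd2 minus Fanci was 0.036 with the most variable probe set, 0.032 with the mean of probe sets and -0.064 to 0.014 without single arrays. Fancc minus Fancf was 0.00077 with the mean of probe sets, and Fanca minus Fancg ran from -0.084 to 0.12 without single arrays. The causes were not tested.

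Same-numbered arrays correlated at 0.20, 0.18, 0.20 and 0.065 in their deviations, so the numbers were not taken to pair the samples; 7 of the 8 arrays matched their own number best, a hint from the data only. With replicate number as a block, 1 member was higher and 3 lower, with Fancl at -0.27 (adjusted p = 0.0184), and 3447 genes were called in all, against 3303.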
